A study of Mus musculus with 35 samples.

Results

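The genes described here are the ligands and receptors of the tumour necrosis factor (TNF) superfamily in mouse bone marrow cells, read through 3 histone marks. Members were all mm10 protein-coding genes with symbols starting Tnfsf or Tnfrsf, plus Tnf, Lta, Ltb, Ltbr, Fas, Fasl, Cd27, Cd40, Cd40lg, Cd70 and Eda2r. This rule gave 43 genes of 21887, at 36 loci, since 11 of them lie close together at 4 loci. They were 18 ligands, 5 receptors with a death domain, 16 receptors that bind TRAF adaptors and 4 decoy receptors.

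The series profiled chromatin by ChIP-seq for H3K4me1, a mark of enhancers and promoter flanks, H3K4me3, a mark of promoters, and H3K27ac, a mark of active elements. Cells came from C57BL/6 mice. There were 4 groups of lineage-negative haematopoietic stem and progenitor cells (HSPC): WT, Npm1c, Flt3-ITD and DM, and a separate group of WT neutrophils. Each group and mark had 2 biological replicates, which gave 30 peak lists. Npm1c is the cytoplasmic mutant of nucleophosmin and Flt3-ITD the internal tandem duplication of the receptor kinase Flt3, both frequent in acute myeloid leukaemia. DM is taken as the double mutant of these alleles, which the labels do not spell out. The sources used here do not state how the alleles were made, the age and sex of the mice, or whether animals were pooled. Both cell types were bead-enriched from whole marrow, so each library is a mixture, and a change in the proportion of cells cannot be told apart from a change within them.

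TNF ligands are membrane-bound or shed trimers that cluster receptors with cysteine-rich extracellular domains. Death domain receptors recruit adaptors that lead to caspase activation or necroptosis, whereas the TRAF-binding receptors signal mainly to NF-κB and MAP kinases, and decoy receptors bind ligand without a complete signalling tail. In marrow the family is known for inflammatory signalling by Tnf, for B cell survival signals from Tnfsf13b (BAFF) and Tnfsf13 (APRIL), and for control of osteoclasts by Tnfsf11 (RANKL), its receptor Tnfrsf11a (RANK) and its decoy Tnfrsf11b (osteoprotegerin).

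A gene's value was the length of its window covered by peaks, in kb. The window ran from 10 kb before to 10 kb after the gene, or 5 kb for H3K4me3. H3K4me1 and H3K4me3 peaks were 1000 bp wide, so their values move in steps of about 1 kb. Windows of neighbouring genes overlap, and exons or introns were not assigned because the annotation gave gene spans only.

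The 250 bases upstream of 4 member starts are shown because H3K27ac over the 300 bases around these starts followed 4 patterns. At Tnf it was present in both DM and both neutrophil libraries, in 1 Npm1c library and in no WT or Flt3-ITD library. At Ltb it was present in the neutrophil libraries alone, and at Tnfrsf12a in all 6 mutant HSPC libraries and in neither WT HSPC nor neutrophils. Tnfrsf8 had none at its start in any library. The bases printed are from RefSeq promoters of GRCm38.p6, written 5′ to 3′ on the gene's strand. They lie at chr17:35202008-35202257 (minus strand, Tnf), chr17:35194257-35194506 (plus strand, Ltb), chr4:145315165-145315414 (minus strand, Tnfrsf8) and chr17:23677450-23677699 (minus strand, Tnfrsf12a). Capitals mark matches, on either strand, to the TATA box (TATAAA), the GC box (GGGCGG), a PU.1 site (GAGGAAGT), a C/EBP site (TTGCNNAA) or the κB consensus.
Tnf: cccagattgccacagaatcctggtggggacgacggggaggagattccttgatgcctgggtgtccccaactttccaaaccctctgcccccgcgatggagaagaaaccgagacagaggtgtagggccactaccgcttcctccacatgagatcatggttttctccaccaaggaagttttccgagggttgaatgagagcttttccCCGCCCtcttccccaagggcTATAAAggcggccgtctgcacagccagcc
Ltb: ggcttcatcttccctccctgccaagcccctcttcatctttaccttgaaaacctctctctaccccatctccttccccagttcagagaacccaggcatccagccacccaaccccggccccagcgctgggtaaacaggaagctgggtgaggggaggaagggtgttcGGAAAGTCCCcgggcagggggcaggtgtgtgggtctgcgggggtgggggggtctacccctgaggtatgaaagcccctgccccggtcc
Tnfrsf8: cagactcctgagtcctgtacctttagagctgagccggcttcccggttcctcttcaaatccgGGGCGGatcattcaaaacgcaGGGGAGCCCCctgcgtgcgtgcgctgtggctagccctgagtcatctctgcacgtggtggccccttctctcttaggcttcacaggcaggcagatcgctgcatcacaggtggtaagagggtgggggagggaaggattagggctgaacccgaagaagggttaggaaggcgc
Tnfrsf12a: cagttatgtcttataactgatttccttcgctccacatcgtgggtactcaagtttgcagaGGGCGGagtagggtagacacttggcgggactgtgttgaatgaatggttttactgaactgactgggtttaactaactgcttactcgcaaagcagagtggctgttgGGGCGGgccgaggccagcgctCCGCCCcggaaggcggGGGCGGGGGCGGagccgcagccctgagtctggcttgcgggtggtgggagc
The Tnf promoter held a TATA box beginning 29 bases before the start and a GC box beginning 49 bases before it. The Ltb promoter held a κB match beginning 87 bases before the start. The Tnfrsf8 promoter held a GC box beginning 189 bases and a κB match beginning 168 bases before the start. The Tnfrsf12a promoter held GC boxes beginning 191, 87, 66, 50 and 44 bases before the start.

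RefSeq promoters were found for 33 of the 43 members, 37 promoters in all. A GC box was present in 17 of them (45.9%), against 32.7% of all 32851 promoters of this length. TATAAA was present in 7 (18.9% against 12.4%), namely those of Tnf, Lta, Tnfsf11, Tnfsf18, Tnfrsf17, Tnfrsf23 and Eda2r. The κB consensus was present in 3 (8.11% against 3.9%), those of Ltb, Tnfrsf8 and Tnfrsf9. A C/EBP match was present in 2 (5.41% against 9.56%) and a PU.1 match in 1 (2.7% against 2.44%). These are letter matches and say nothing of binding.

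A peak of H3K4me3 lay over the 300 bases around the start in both WT HSPC libraries for 24 of 37 member promoters (64.9%), against 39.2% of all promoters. The median ratio of observed to expected CpG upstream of those 24 starts was 0.425, and it was 0.739 over all promoters so marked. In neutrophils 15 of the 37 (40.5%) carried H3K4me3 in both libraries, against 35.8% of all. The Tnfrsf11a promoter was the most CpG-rich of the family with a ratio of 0.924, and that of Tnfrsf18 the poorest with 0.108.

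In WT HSPC many of these genes had both methylation marks without H3K27ac. H3K4me1 was present in both WT HSPC libraries in all 43 windows (100%, against 76.3% of all genes), and H3K4me3 in 36 (83.7% against 70.3%). H3K27ac was present in both libraries in 19 (44.2% against 54.2%). Windows with both methylation marks in both WT libraries and no H3K27ac numbered 17 (39.5%), against 14.9% of all genes. They were Tnfsf4, Tnfsf8, Tnfsf9, Tnfsf11, Tnfsf13b, Tnfsf14, Cd70, Cd40, Fas, Eda2r, Tnfrsf10b, Tnfrsf11a, Tnfrsf11b, Tnfrsf13c, Tnfrsf18, Tnfrsf19 and Tnfrsf23. The same state was found for 8 members in Npm1c HSPC (18.6% against 9.09%), 13 in Flt3-ITD HSPC (30.2% against 12.3%), 11 in DM HSPC (25.6% against 11.1%) and 7 in neutrophils (16.3% against 12.4%). H3K27ac was never found at Tnfsf11, Tnfsf18, Cd70, Cd40lg, Tnfrsf11b, Tnfrsf13c and Tnfrsf19, and was found in 1 library alone at Tnfsf4, Fasl, Tnfsf15 and Cd40. The other 32 members, covered in at least 2 of the 10 H3K27ac libraries, entered the test, as did 43 members for H3K4me1 and 41 for H3K4me3. Counts of calls below include Tnfsf13b and Eda2r for H3K27ac and Tnfrsf4 for H3K4me3. These met the filter only through the group where they were covered and so had to differ. The counts also include Tnfrsf4, Tnfrsf10b and Tnfrsf23 for H3K27ac. Each was covered in 1 library outside the neutrophils, so it too met the filter only through the neutrophils.

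**Figure D1:**
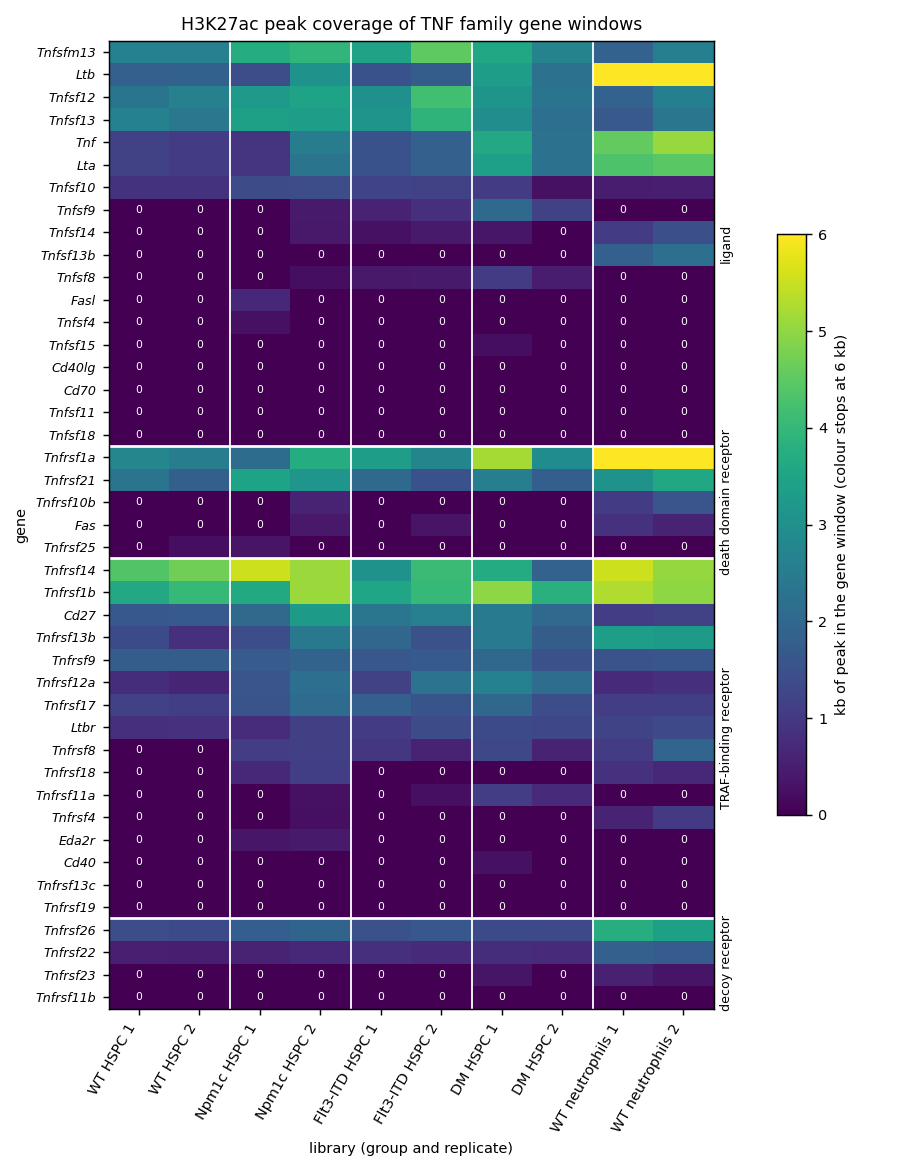
H3K27ac coverage (kb, colour) of the 43 gene windows (rows, grouped by role and ordered by mean) in the 10 libraries (columns, group and replicate number). White zeros mark windows without a peak: Tnfsf13b is covered in the neutrophil libraries alone, and 7 rows are at 0 throughout.

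Neutrophils carried more H3K27ac at this family than WT HSPC. Summed over the members' windows, with shared stretches counted once, H3K27ac covered 27.1 ± 0.283 kb (SD, n = 2) in WT HSPC and 52.4 ± 2.33 kb in neutrophils. That was 0.178% ± 0.00283 and 0.321% ± 0.00636 of all H3K27ac coverage of the libraries. Of 32 members tested, 16 at 11 loci rose and none fell (limma, adjusted p under 0.05). Among all 13637 genes tested 36.4% were called, 13.2% upward and 23.2% downward. The median change of the members was 0.50 on the log2(bp + 500) scale, used for every log2 value here, and -0.12 over all genes. By role, 5 of 11 tested ligands rose, 4 of 5 death domain receptors, 4 of 13 TRAF-binding receptors and 3 of 3 decoy receptors. Among these, Tnfsf13b, Tnfrsf10b, Tnfrsf4 and Tnfrsf23 met the filter only through the neutrophils. Without neutrophil replicate 1 or replicate 2 the count of calls was 8 or 6, and with the gene spans alone it was 9. Of 122 merged H3K27ac regions in members' windows, 36 (29.5%) were present in both neutrophil libraries and neither WT HSPC library, against 16.3% of 48381 regions genome-wide.

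Fewer members were called in the mutant HSPC. Npm1c HSPC covered 41 ± 7.21 kb of the members' windows, Flt3-ITD HSPC 34.1 ± 2.33 kb and DM HSPC 38.5 ± 11.4 kb. As a share of the library's coverage these were 0.173% ± 0.0283, 0.196% ± 0.000707 and 0.228% ± 0.00212. The share in both Flt3-ITD and both DM libraries lay above that in both WT libraries. In Npm1c HSPC 5 of 32 members rose and none fell (15.6%, against 17.7% of all genes called): Tnfrsf8, Tnfrsf18, Tnfrsf26, Tnfrsf12a and Eda2r. In Flt3-ITD HSPC limma called 0 of 32 members (8 at an unadjusted p under 0.05), against 0.103% of all genes. In DM HSPC 5 rose and none fell (15.6% against 13%, 6.94% upward and 6.04% downward): Tnfsf9, Tnfsf8, Tnfrsf8, Tnfrsf11a and Tnfrsf12a. The 4 comparisons share the WT libraries. Leaving out either WT library left 0 calls in Npm1c and in DM. Without replicate 1 or replicate 2 of the mutant, 4 or 2 members were called in Npm1c, 2 of the 5 reported among them in each case. In DM 4 or 7 were called, with 2 or 5 of the 5 reported among them. The median change over all genes was 0.36 in Npm1c, where the libraries covered 23.4 and 23.9 Mb against 15.2 and 15.3 Mb in WT. With libraries centred on their medians, 0 members were called in Npm1c (0.799% of all genes), and 7 rose and 1 fell in DM (22.5% of all genes).

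**Figure D2:**
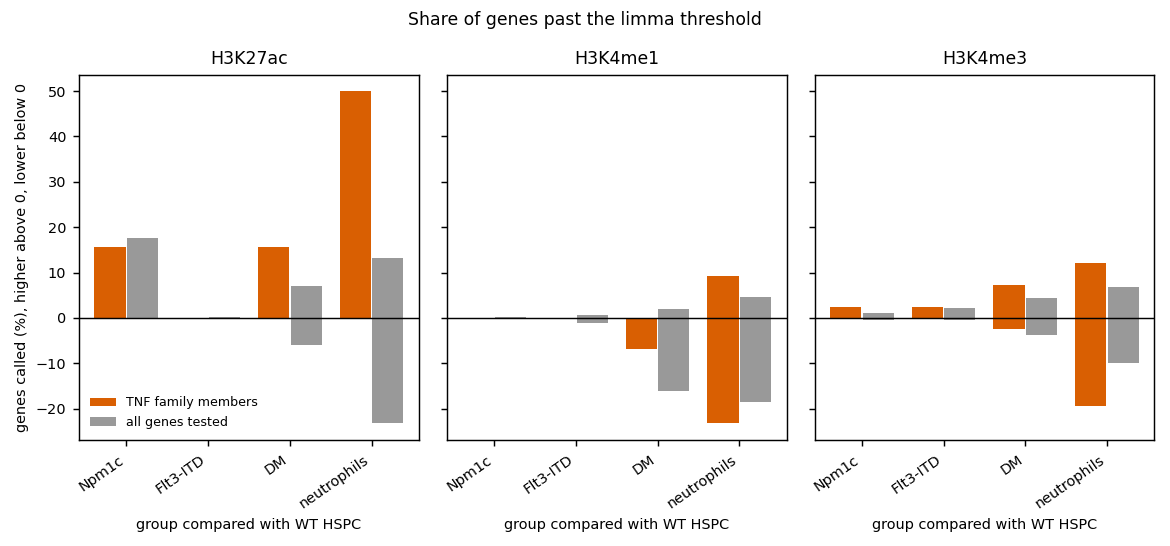
Share of genes (%) called higher (above 0) or lower (below 0) than WT HSPC, for TNF family members that were tested (orange) and all genes tested (grey), in each mark. For H3K27ac in neutrophils 50% of the tested members were called higher, against 13.2% of all genes. Among the members called, Tnfsf13b, Tnfrsf4, Tnfrsf10b and Tnfrsf23 met the filter only through the neutrophils.

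Among the ligands, the cluster of Tnf, Lta and Ltb was higher in neutrophils. Tnf encodes the founding inflammatory cytokine, and Lta and Ltb the lymphotoxins. Tnf was covered for 1.19 and 1.06 kb in WT HSPC, 0.914 and 2.51 kb in Npm1c, 1.51 and 1.85 kb in Flt3-ITD, 3.62 and 2.23 kb in DM, and 4.57 and 5.08 kb in neutrophils. Both DM libraries lay above both WT libraries, and both neutrophil libraries above all HSPC libraries. The rise in neutrophils was 1.71 (SE 0.34, limma adjusted p = 0.00732), and the difference in DM was 1.05 (SE 0.34, adjusted p = 0.0886). Lta, whose window shares most of this stretch, gave 1.19 and 1.06 kb in WT and 4.33 and 4.47 kb in neutrophils, a rise of 1.59 (SE 0.307, adjusted p = 0.00654). Ltb was covered for 1.83 and 1.87 kb in WT, 1.41 and 3.09 kb in Npm1c, 1.51 and 1.76 kb in Flt3-ITD, 3.37 and 2.25 kb in DM, and 5.99 and 6.11 kb in neutrophils. The rise in neutrophils was 1.48 (SE 0.283, adjusted p = 0.00633), in a window that also holds Lst1, which is not a member. All 3 calls were lost without either neutrophil library, and those of Tnf and Lta also with the gene spans alone.

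Peaks within Tnf were present in all 10 libraries, and new regions lay around it. The region in the gene that reaches the start printed above, chr17:35200654-35202416, was covered for 1185 and 1062 bp in WT and 1425 and 1571 bp in neutrophils, where the peaks extended over the start. A region centred at -8142 bp from the Tnf start, chr17:35209573-35210727, had no H3K27ac in either WT HSPC library and a peak in both libraries of every other group, from 264 bp in Npm1c replicate 1 to 1086 bp in DM replicate 1. It lay outside any annotated protein-coding gene, and both H3K4me1 and H3K4me3 marked it in both libraries of all 5 groups. The region over Ltb itself, chr17:35194336-35196169, was covered for 1703 and 1596 bp in neutrophils and at most 497 bp in HSPC. Around the Tnf start, H3K4me3 was present in both libraries of every HSPC group and in neither neutrophil library. Over the whole Tnf window, H3K4me3 covered 2 kb in each library of every group except DM, which had 3 kb in both. That step of 1 peak was called because the replicates did not vary (log2 change 0.49), and it was not called once the spread was held to at least that of 1 peak (adjusted p = 0.147), a setting chosen after seeing the data. H3K4me1 at Tnf rose from 6 and 7 kb in WT HSPC to 9 and 8 kb in neutrophils (log2 change 0.36, adjusted p = 0.049, lost without any 1 of the 4 libraries, with no filter and with the spread of at least 1 peak), with the opposite direction inside the gene span alone (-0.75, adjusted p = 0.0157).

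**Figure D3:**
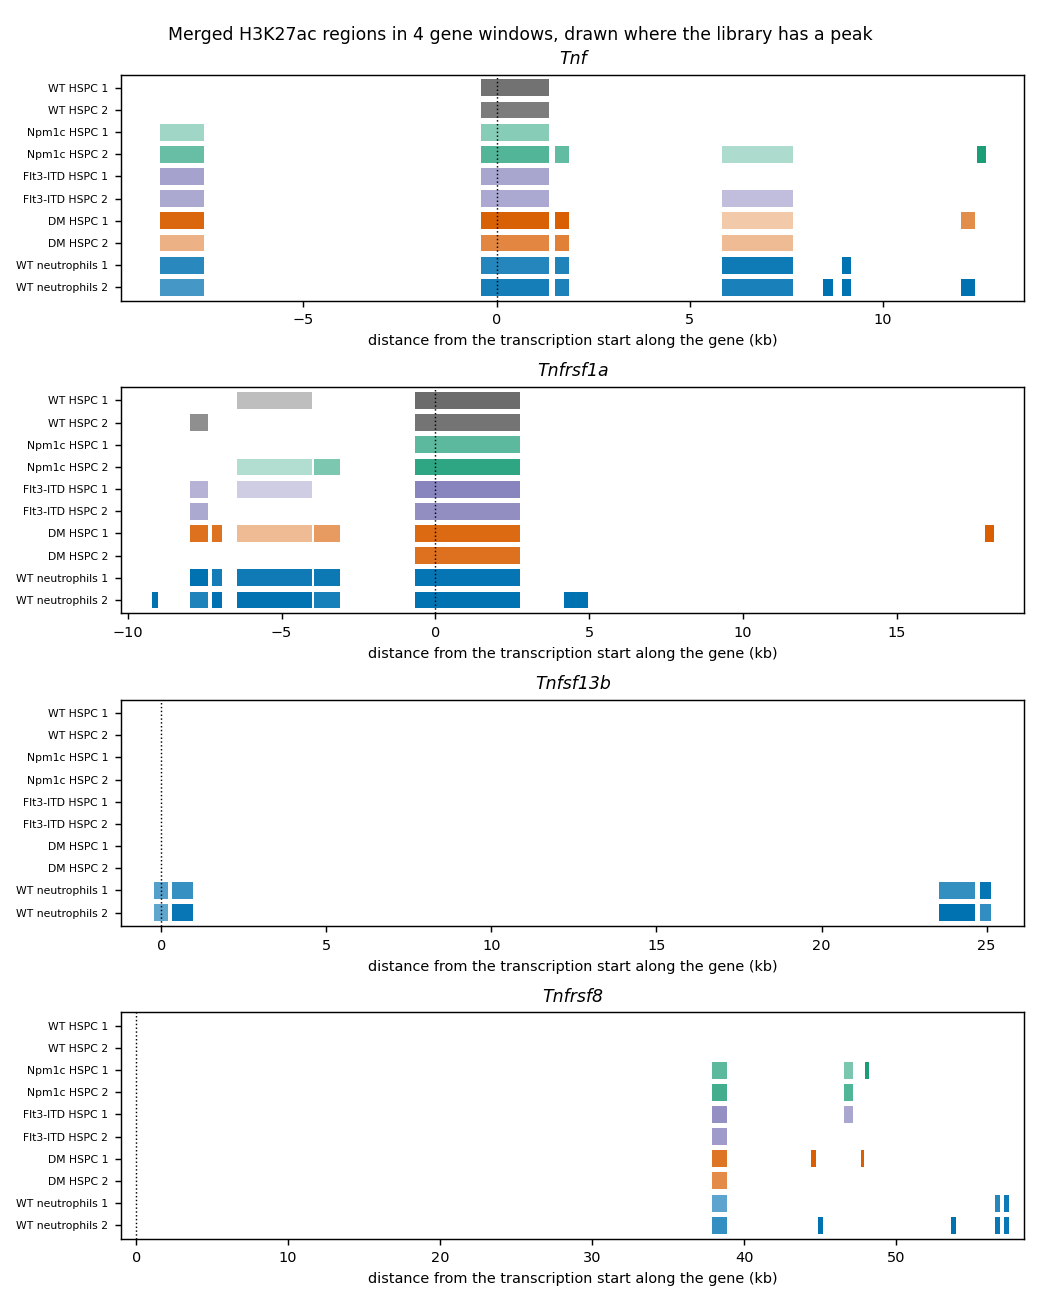
H3K27ac regions in the windows of Tnf, Tnfrsf1a, Tnfsf13b and Tnfrsf8, by distance from the transcription start (kb, positive into the gene), with 1 row per library. A bar spans the merged region, and a fainter bar means that the library's own peaks cover less of it: the region farthest upstream of Tnf is missing in WT HSPC alone.

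Tnfsf13b, which encodes the B cell survival factor BAFF, had H3K27ac in neutrophils and in no HSPC library. It was covered for 1.83 and 2.18 kb in neutrophils and 0 in all 8 HSPC libraries. It met the filter through the neutrophils alone, so no test is given. The peaks formed 4 regions inside the gene span, one at the start, one just downstream of it, and a pair about 24 kb into the gene. H3K4me1 went the same way, from 3 and 2 kb in WT to 7 and 6 kb in neutrophils (log2 change 1.24, SE 0.192, adjusted p = 0.00701). H3K4me3 covered 1 kb in both WT libraries and 2 kb in both neutrophil libraries.

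Tnfsf9 and Tnfsf8, the ligands of the costimulatory receptors 4-1BB and CD30, were marked in Flt3-ITD and DM HSPC. Tnfsf9 was at 0 in both WT libraries, 0 and 0.438 kb in Npm1c, 0.568 and 0.816 kb in Flt3-ITD, 2.06 and 1.18 kb in DM, and 0 in both neutrophil libraries. Tnfsf8 was at 0 in WT and in neutrophils, 0 and 0.228 kb in Npm1c, 0.4 and 0.424 kb in Flt3-ITD, and 1.07 and 0.459 kb in DM. For each gene both DM libraries lay above all WT, Npm1c and neutrophil libraries. Against WT the adjusted p was 0.0086 for Tnfsf9 and 0.0191 for Tnfsf8 in DM, and 0.148 and 0.184 in Flt3-ITD. Against Npm1c, a comparison that does not use the WT libraries, DM was higher by 1.60 at Tnfsf9 (SE 0.313, adjusted p = 0.00896) and by 1.02 at Tnfsf8 (SE 0.255, adjusted p = 0.0205). DM against Flt3-ITD was called at neither. The Tnfsf8 call against Npm1c was lost without Npm1c replicate 1, and the Tnfsf9 call with the gene span alone. The Tnfsf9 peaks were in the gene span, at chr17:57105311-57105904, and on both sides of it, at chr17:57104619-57105142 (DM alone) and chr17:57113225-57113878 (Flt3-ITD and DM). At Tnfsf8 H3K4me3 covered 1 kb in every HSPC library and 2 kb in both neutrophil libraries (adjusted p with the spread of at least 1 peak 0.0384), where H3K27ac was absent.

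Monocyte marker genes moved with the DM gains. The summed H3K27ac of 8 monocyte and macrophage genes ranged from 3.19 to 4.04 kb in WT, 3.61 to 8.85 kb in Npm1c, 6.23 to 8.1 kb in Flt3-ITD and 8.55 to 19.2 kb in DM HSPC, with 5 of the 8 covered in both libraries of WT and of DM and Adgre1 at 0. Erythroid genes moved the other way, from 16.6 to 17 kb in WT to 2.39 to 3.56 kb in DM. The DM libraries covered 20.3 and 13.5 Mb in all, and replicate 1 gave the higher value at Tnf, Tnfsf8 and Tnfsf9. The part of these shifts in the DM values was not tested.

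Tnfsf14 (LIGHT), a ligand of Tnfrsf14 and Ltbr, was at 0 in WT and rose in neutrophils, where it was covered for 1.06 and 1.47 kb (adjusted p = 0.00626). The mutants gave from 0 to 0.444 kb. The call was lost without neutrophil replicate 2. Tnfsf10 (TRAIL), the ligand of Tnfrsf10b, lost H3K4me1 in DM and in neutrophils. Its H3K4me1 covered 8 and 8 kb in WT, 8 and 7 kb in Npm1c, 8 and 8 kb in Flt3-ITD, 4 and 5 kb in DM, and 3.75 and 3.83 kb in neutrophils. The change was -0.77 in DM (SE 0.108, adjusted p = 0.00636) and -0.99 in neutrophils (SE 0.108, adjusted p = 0.0019). The DM call was lost after centring (adjusted p = 0.0933). Further DM losses of H3K4me1 were called at Tnfsfm13 (-0.42, adjusted p = 0.0396, lost without any 1 of the 4 libraries and with the gene span alone) and Tnfrsf21 (-0.55, adjusted p = 0.00439), so 3 of 43 members fell and none rose (6.98%, against 18.1% of all genes called, 16.2% downward). The median change over all genes was -0.21, and after centring 3 other members rose and none fell. In Npm1c and Flt3-ITD limma called 0 of 43 members for H3K4me1 (6 at an unadjusted p under 0.05 in each), against 0.334% and 1.7% of all genes.

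Tnfsf12, Tnfsf13 and Tnfsfm13, a locus of overlapping ligand genes that includes APRIL, carried H3K27ac in all 10 libraries. Tnfsf13 ranged from 2.4 to 2.64 kb in WT, 2.19 to 3.91 kb in the mutants and 1.67 to 2.35 kb in neutrophils, and none of the 3 was called against WT. Their windows also hold Senp3.

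Of the 5 death domain receptors, Tnfrsf1a, Tnfrsf10b, Fas and Tnfrsf21 rose in neutrophils and Tnfrsf25 was not called. Tnfrsf1a, the main receptor of soluble Tnf, was covered for 2.77 and 2.52 kb in WT, 2.13 and 3.71 kb in Npm1c, 3.33 and 2.76 kb in Flt3-ITD, 5.18 and 2.92 kb in DM, and 7.27 and 8.41 kb in neutrophils. The rise in neutrophils was 1.40 (SE 0.285, adjusted p = 0.00802). It was lost without either neutrophil library or without WT replicate 2, and with the gene span alone. All 10 libraries had peaks of 2126 to 3412 bp in the region that reaches the start. Upstream of it, chr6:125343260-125345717 was covered for 2262 and 2448 bp in neutrophils and at most 563 bp in HSPC. That stretch overlaps the neighbouring gene Scnn1a. H3K4me3 in the window covered 2 to 3 kb in HSPC and 4.5 and 4.53 kb in neutrophils. The log2 change was 0.83 (SE 0.182, limma adjusted p = 0.0334). That call was lost without either neutrophil library or WT replicate 1, with no filter and with the gene span alone. Around the start, H3K4me3 was present in both libraries of WT, Npm1c and Flt3-ITD HSPC, 1 DM library and neither neutrophil library.

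Tnfrsf10b, the death receptor for TRAIL, was at 0 in WT, Flt3-ITD and DM. It was covered for 0 and 0.576 kb in Npm1c, and 1.07 and 1.59 kb in neutrophils. It met the filter only through the neutrophils, so no test is given. Its H3K4me1 rose from 5 and 6 kb in WT to 10 and 10 kb in neutrophils (log2 change 0.81, SE 0.153, adjusted p = 0.0143). That call was lost with the gene span alone and without either neutrophil library or WT replicate 1. The window also holds Rhobtb2. Fas, the receptor of Fasl, was at 0 in both WT and both DM libraries, 0 and 0.413 kb in Npm1c, 0 and 0.313 kb in Flt3-ITD, and 0.849 and 0.577 kb in neutrophils (adjusted p = 0.0187, lost without any 1 of the 4 libraries). H3K4me3 at Fas covered 1 kb in both WT libraries, 2 kb in all 6 mutant libraries and 3 kb in both neutrophil libraries. With the spread held to at least 1 peak, its adjusted p was 0.106 in Npm1c, 0.0701 in Flt3-ITD, 0.0243 in DM and 6.71e-05 in neutrophils. Tnfrsf21 (DR6) rose in neutrophils by 0.58 (SE 0.184, adjusted p = 0.0441, lost without any 1 of the 4 libraries). Tnfrsf25 (DR3), known mainly from T cells, had H3K27ac of 0 and 0.233 kb in WT and 0 in neutrophils. Its H3K4me1 fell, from 5 and 5 kb in WT to 2 and 1 kb in neutrophils (log2 change -1.51, SE 0.253, adjusted p = 0.00935, lost without either WT library). Its H3K4me3 fell from 2.15 and 2 kb to 0.344 and 0.401 kb (log2 change -1.56, SE 0.112, adjusted p = 0.000236).

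**Figure D4:**
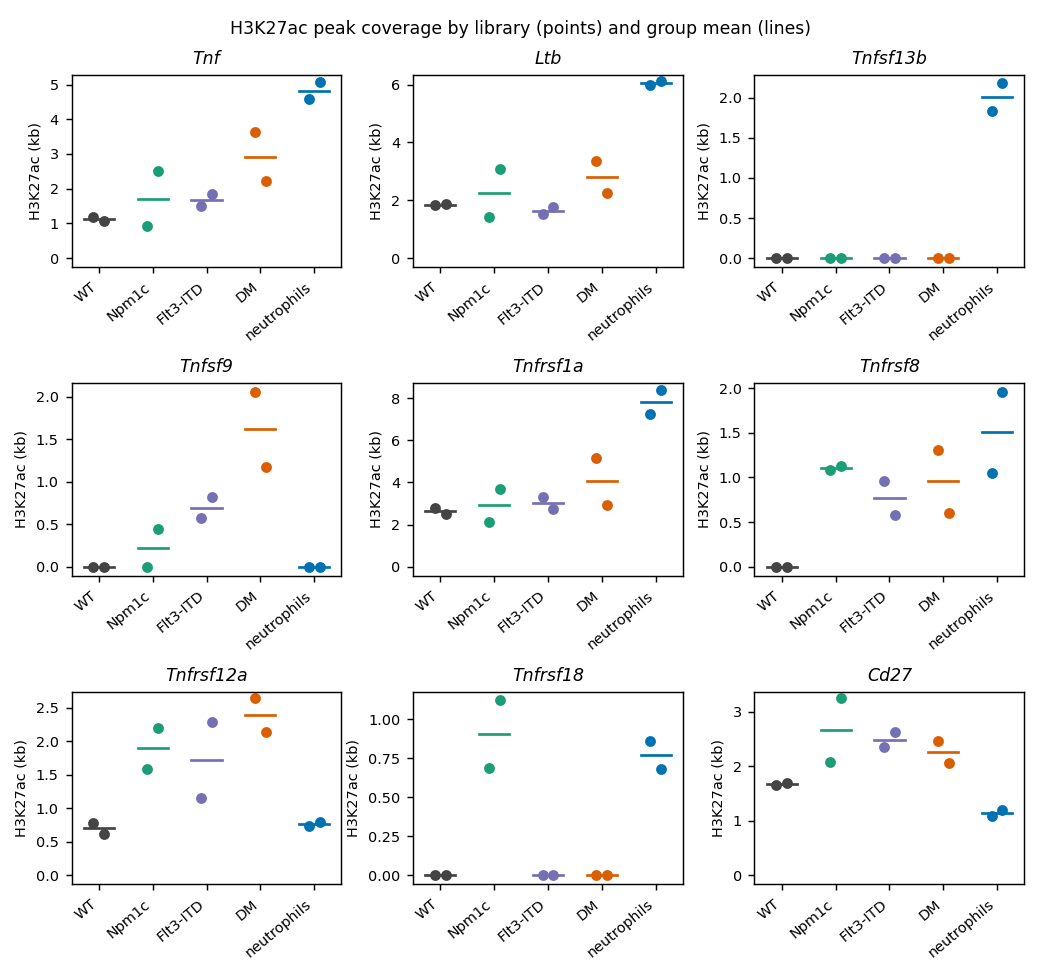
H3K27ac coverage (kb) of 9 gene windows in each library (points) with the group mean (line); groups are the HSPC genotypes and WT neutrophils. Tnfrsf12a is above 1.1 kb in all 6 mutant libraries and at most 0.8 kb in WT HSPC and neutrophils, and Cd27 is highest in the mutants.

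Among the TRAF-binding receptors, Tnfrsf8 (CD30) had no H3K27ac in WT HSPC and some in every other library. It was covered for 1.08 and 1.13 kb in Npm1c, 0.958 and 0.582 kb in Flt3-ITD, 1.31 and 0.605 kb in DM, and 1.05 and 1.96 kb in neutrophils. The adjusted p against WT was 0.0202 in Npm1c, 0.0191 in DM and 0.0025 in neutrophils. The Npm1c call was also lost without either Npm1c library, after centring and with no filter. The DM call was also lost without DM replicate 1, with a pseudocount of 2000 bp and with no filter. All 3 calls were lost with equal lists of the widest peaks. A region in the gene span 38365 bp from the start, chr4:145276314-145277285, was at 0 in WT and covered for 497 to 796 bp in all other libraries. H3K4me1 marked that region in both libraries of every group, WT included, and H3K4me3 in both libraries of none. H3K4me3 elsewhere in the window was at 0 in both WT libraries and reached 3 and 4 kb in neutrophils (adjusted p = 0.0492, lost without any 1 of the 4 libraries). It covered 1 and 0 kb in Npm1c, 1 and 4 kb in Flt3-ITD, and 1 and 2 kb in DM. The Flt3-ITD difference was not called (limma adjusted p = 0.317). It was called after centring (0.000354) and with a spread of at least 1 peak (0.00014), settings in which the neutrophil call also held. The neighbouring Tnfrsf1b, the inducible receptor of membrane-bound Tnf, was covered throughout: 3.62 and 4.03 kb in WT, 3.65 and 5.09 kb in Npm1c, 3.56 and 4.02 kb in Flt3-ITD, 4.97 and 3.81 kb in DM, and 5.28 and 4.97 kb in neutrophils, with no call against WT. Within it, a region at chr4:145221571-145222680 was covered for 843 to 955 bp in WT and Npm1c, 0 and 398 bp in Flt3-ITD, and 0 in DM and neutrophils. A region at chr4:145242617-145243342 was covered for 721 and 714 bp in neutrophils and 0 in HSPC.

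Tnfrsf12a (Fn14), the receptor of Tnfsf12, was singled out after its values were seen. It was covered for 0.777 and 0.62 kb in WT, 1.59 and 2.2 kb in Npm1c, 1.15 and 2.29 kb in Flt3-ITD, 2.64 and 2.14 kb in DM, and 0.736 and 0.8 kb in neutrophils. All 6 mutant libraries lay above WT and neutrophils. The rise was 0.99 in Npm1c (SE 0.249, adjusted p = 0.038) and 1.27 in DM (SE 0.249, adjusted p = 0.0191), and the difference was 0.85 in Flt3-ITD (SE 0.249, adjusted p = 0.184). The coverage in WT and neutrophils was a region over Thoc6 and Hcfc1r1, while the region at the promoter printed above, chr17:23676138-23677510, was at 0 there and covered for 402 to 1231 bp in the 6 mutant libraries. H3K4me1 and H3K4me3 marked it in both libraries of all 5 groups. The Npm1c call was lost after centring (adjusted p = 0.197), the DM call was not (0.00355). Both calls were lost without replicate 1 of the mutant, and the Npm1c call without replicate 2. H3K4me3 at Tnfrsf12a covered 3 kb in WT, Npm1c and Flt3-ITD libraries and 2 kb in DM and neutrophil libraries, and neither fall was called with the spread of at least 1 peak (adjusted p = 0.129 and 0.0881).

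Tnfrsf18 (GITR) and Tnfrsf4 (OX40), adjacent costimulatory receptor genes, were at 0 in WT. Tnfrsf18 was covered for 0.685 and 1.12 kb in Npm1c, 0 in Flt3-ITD and DM, and 0.859 and 0.677 kb in neutrophils (adjusted p = 0.0106 and 0.00128 against WT). DM was lower than Npm1c (adjusted p = 0.00165). Both this call and the Npm1c call against WT were lost with the gene span alone. The Npm1c call against WT was also lost after centring (adjusted p = 0.053). A flanking region, chr4:156031576-156032011, was found in both Npm1c libraries alone, and the start was covered in both neutrophil libraries. Tnfrsf4 was covered for 0.596 and 1.03 kb in neutrophils, but its 2 regions lie over Sdf4 and over Tnfrsf18. Tnfrsf4 met the filter only through the neutrophils, so no test is given for it. Eda2r, the receptor of ectodysplasin A2, was covered for 0.353 and 0.434 kb in Npm1c and 0 elsewhere, at chrX:97376381-97377131 near its start. It met the filter through Npm1c alone, so no test is given. Its H3K4me3 covered 1 kb in all 8 HSPC libraries and was absent from both neutrophil libraries. Genes of eosinophils, basophils and mast cells moved with these Npm1c values: their summed H3K27ac was 0.265 to 0.762 kb in WT and 3.75 to 6.49 kb in Npm1c, with 4 of 8 covered in both Npm1c libraries and Epx, Prg2, Fcer1a and Cpa3 at 0. In neutrophils that sum was 8.07 to 8.81 kb, with 2 of 8 covered in both libraries. The 10 stem and progenitor genes summed to 14.7 to 14.8 kb in WT and 43.7 to 55.4 kb in Npm1c. Their sum was also above WT in Flt3-ITD (29.8 to 33.5 kb) and in DM (22.4 to 39.3 kb). The part of these genes in the results was not tested.

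Tnfrsf11a, the receptor of RANKL, was at 0 in WT and neutrophils, 0 and 0.267 kb in Npm1c, 0 and 0.246 kb in Flt3-ITD, and 1.08 and 0.723 kb in DM (adjusted p = 0.0143, lost without DM replicate 1). DM was higher than Npm1c by 1.17 (SE 0.263, adjusted p = 0.0144), a call lost without Npm1c replicate 1. A region 6086 bp into the gene, chr1:105786583-105787036, was covered for 454 and 390 bp in DM and 0 elsewhere. Tnfsf11 and Tnfrsf11b, the ligand and decoy of this axis, had no H3K27ac in any library.

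Cd27, a costimulatory receptor of lymphoid progenitors and lymphocytes, was covered for 1.65 and 1.69 kb in WT, 2.08 and 3.26 kb in Npm1c, 2.35 and 2.62 kb in Flt3-ITD, 2.47 and 2.06 kb in DM, and 1.09 and 1.19 kb in neutrophils. All 6 mutant libraries lay above WT, and both neutrophil libraries below it. No difference from WT was called: the change was 0.52 in Npm1c (adjusted p = 0.0723) and -0.41 in neutrophils (adjusted p = 0.109). The region that reaches its start, chr6:125236039-125237524, was covered for 221 and 249 bp in WT, 551 to 1486 bp in the mutants and 0 in neutrophils, and a region over the end of Cd27 and Tapbpl was covered in all 10 libraries. H3K4me3 fell from 2 and 3 kb in WT to 1 and 1 kb in neutrophils (-0.98, SE 0.21, adjusted p = 0.0307, lost without either neutrophil library or WT replicate 2). Tnfrsf13b (TACI), a receptor of BAFF and APRIL, was covered for 1.34 and 0.809 kb in WT, 1.41 and 2.43 kb in Npm1c, 1.99 and 1.49 kb in Flt3-ITD, 2.44 and 1.77 kb in DM, and 3.34 and 3.28 kb in neutrophils (rise of 1.30, SE 0.253, adjusted p = 0.00682). Much of the rise lay over the neighbouring gene Usp22, and the call was lost with the gene span alone and without either neutrophil library or WT replicate 2. Tnfrsf14, the receptor of LIGHT, was lower in DM (3.69 and 1.89 kb) than in Npm1c (5.54 and 5.1 kb), by 0.88 (SE 0.25, adjusted p = 0.0326, lost without DM replicate 2 or either Npm1c library and with no filter), and WT had 4.36 and 4.71 kb. Cd40, the receptor through which T cells activate B cells and macrophages, had 1 H3K27ac peak of 0.269 kb in DM replicate 1. Its H3K4me1 covered 4 and 3 kb in WT, 2 and 3 kb in Npm1c, 4 and 4 kb in Flt3-ITD, 6 and 8 kb in DM, and 2 and 1 kb in neutrophils. DM exceeded Npm1c at Cd40 by 1.33 (SE 0.303, adjusted p = 0.0367), and its difference from WT had an adjusted p of 0.0919. In that comparison of H3K4me1 Cd40 and Tnfsf15 rose and Tnfsf10 and Tnfrsf21 fell, 9.3% of 43 against 15.2% of all genes called, and after centring 6 rose and 2 fell. Against Flt3-ITD, Tnfsf10, Tnfsfm13 and Tnfrsf21 fell in DM and none rose (6.98% against 9.33%).

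The decoy receptors Tnfrsf22, Tnfrsf23 and Tnfrsf26, clustered on chromosome 7, rose in neutrophils. Tnfrsf26 was covered for 1.41 and 1.34 kb in WT, 1.32 to 1.94 kb in the mutants and 3.74 and 3.42 kb in neutrophils (rise of 1.12, SE 0.0923, adjusted p = 0.00023). Tnfrsf22 was covered for 0.536 and 0.512 kb in WT, 0.597 to 0.831 kb in the mutants and 1.84 and 1.75 kb in neutrophils (rise of 1.17, SE 0.114, adjusted p = 0.00048). Their windows overlap and share 3 of the regions, and the H3K27ac call at Tnfrsf22 was lost with the gene span alone. Tnfrsf23 was at 0 in WT, Npm1c and Flt3-ITD, 0.35 and 0 kb in DM, and 0.557 and 0.345 kb in neutrophils. It met the filter only through the neutrophils, so no test is given. H3K4me1 of Tnfrsf22 rose from 2 and 1.98 kb to 4.94 and 4 kb (log2 change 0.99, SE 0.161, adjusted p = 0.00839, lost without WT replicate 2 and with the gene span alone). Tnfrsf11b lost both methylation marks, with H3K4me1 of 3 and 3 kb and H3K4me3 of 1 and 1 kb in WT and 0 for both in neutrophils.

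**Figure D5:**
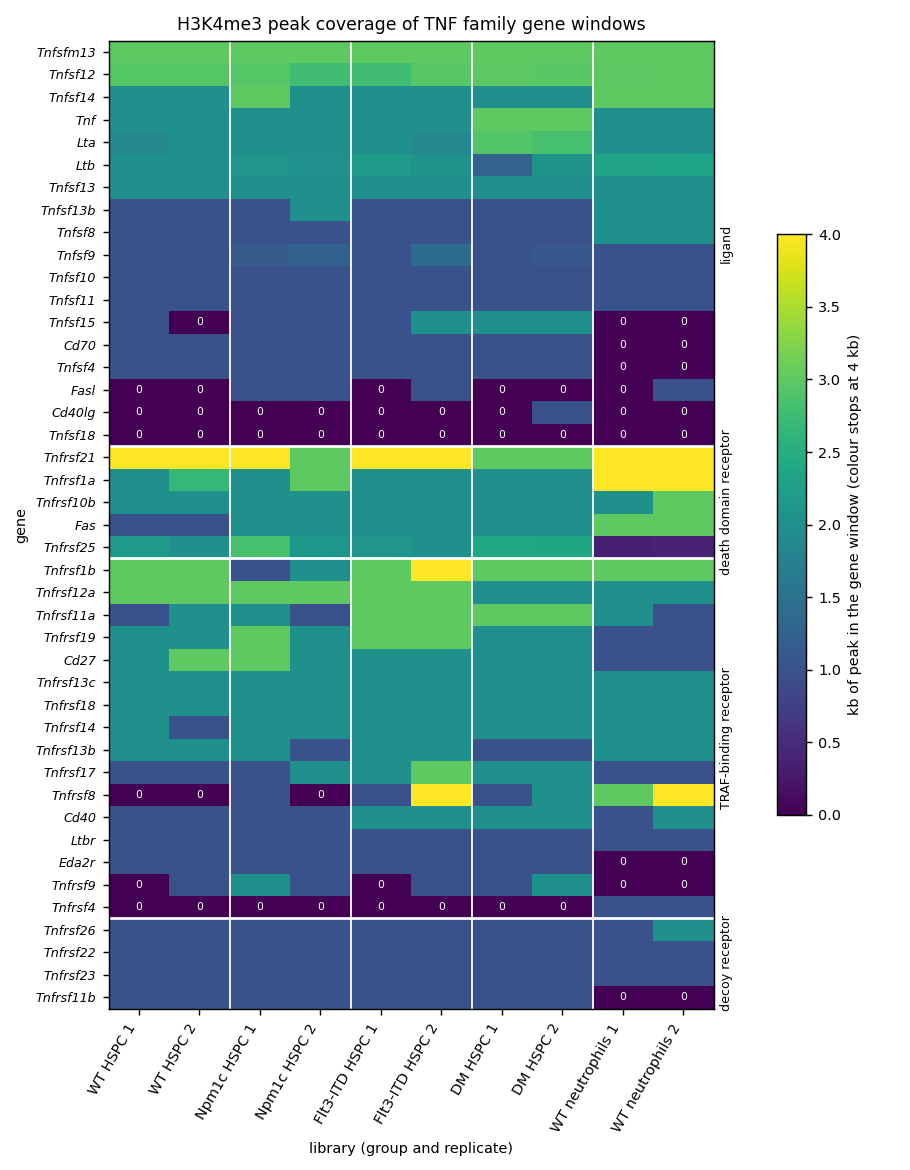
H3K4me3 coverage (kb, colour) of the gene windows in the 10 libraries, laid out like the H3K27ac heat map. Tnfsf4, Cd70, Tnfrsf11b and Eda2r have 1 kb in all 8 HSPC libraries and a white 0 in both neutrophil libraries.

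Methylation marks both rose and fell in neutrophils. For H3K4me1, 4 members rose and 10 fell of 43 (32.6%, against 23.3% of all genes called, 4.67% upward and 18.6% downward). The largest fitted falls were at Tnfrsf11b and Tnfrsf19, a receptor of epithelial and neural tissue, which had 3.63 and 5.7 kb in WT and 1 and 0 kb in neutrophils (-2.55, SE 0.581, adjusted p = 0.0269, lost without either WT library or neutrophil replicate 2). Tnfsf4, Tnfsf12, Tnfsfm13, Tnfrsf9, Tnfrsf13c and Cd70 also fell, beside Tnfsf10 and Tnfrsf25. For H3K4me3, 5 rose and 8 fell of 41 (31.7%, against 16.6% of all genes), and after centring 7 rose and 5 fell. Tnfsf4, Cd70, Tnfrsf11b and Eda2r each went from 1 kb in every HSPC library to 0 in both neutrophil libraries. For each of these 4 the adjusted p with a spread of at least 1 peak was 0.000402. Tnfrsf4 had 1 kb in both neutrophil libraries and 0 in HSPC, and it too met the filter through the neutrophils alone. In the HSPC comparisons H3K4me3 was called at 1 member in Npm1c and 1 in Flt3-ITD (Fas in each, against 1.37% and 2.73% of all genes) and at 4 in DM (Tnf, Lta and Fas upward, Tnfrsf12a downward, 9.76% against 8.17%). All 4 of these calls in DM were lost after centring, which called 2 other members upward.

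A list of 50 genes that act around and downstream of the receptors held adaptors, kinases, proteases, NF-κB subunits and inhibitors, all tested. In neutrophils 7 rose and 6 fell for H3K27ac, against 13.2% of all genes called upward and 23.2% downward. The median change was -0.04, and -0.12 over all genes. Those that rose included Ikbke, a kinase of the IκB kinase family (0 and 0 kb in WT, 3.17 and 3.15 kb in neutrophils, adjusted p = 0.00179), and Bcl3, an atypical IκB protein (1.28 and 1.14 kb to 7.99 and 8.67 kb, log2 change 2.37, adjusted p = 0.00573). Traf4, an adaptor, fell from 1.01 and 1.49 kb to 0 (adjusted p = 0.00416), and Rnf31, a subunit of the linear ubiquitin ligase, fell from 5.29 and 5.32 kb to 2.38 and 2.13 kb (-1.08, adjusted p = 0.00509). In DM 3 of the 50 rose and 3 fell, against 6.94% and 6.04% of all genes. These counts are near or below the shares over all genes, as is that of Npm1c, and nothing is read from them about the list. Tnip3, an inhibitor of NF-κB that binds A20, was at 0 in WT, 0.503 and 0.696 kb in Npm1c, 0.212 and 0 kb in Flt3-ITD, 3.53 and 1.2 kb in DM and 0 in neutrophils. Its adjusted p in DM was 0.00929 against WT and 0.0328 against Flt3-ITD. Ripk3, the kinase of necroptosis, was at 0 in WT and covered in all other libraries, from 0.215 to 0.648 kb (adjusted p = 0.0396 in Npm1c, 0.279 after centring, and 0.0418 in DM). In Npm1c 7 of the 50 rose and none fell, against 17.7% of all genes called upward, among them Tnfaip3, which encodes A20, from 1.9 and 1.81 kb to 4.22 and 3.71 kb (log2 change 0.92, adjusted p = 0.0287, and 0.173 after centring).

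DM was also set against each single mutant for H3K27ac. Against Npm1c, 3 members rose (Tnfsf8, Tnfsf9 and Tnfrsf11a) and 4 fell (Tnfrsf14, Tnfrsf18, Tnfrsf26 and Eda2r), 21.9% of 32, against 33.9% of all genes called, 3.01% upward and 30.9% downward. After centring 11 rose and 2 fell. Against Flt3-ITD limma called 0 (2 at an unadjusted p under 0.05), against 2.49% of all genes. The difference of DM from the sum of the single-mutant changes, an interaction term, was called below 0 at 4 members (12.5%, against 18% of all genes): Tnfrsf8, Tnfrsf18, Tnfrsf26 and Eda2r. After centring 2 other members were called above 0 and none below.

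Most of the listed markers of each labelled cell type carried H3K27ac in that cell type. All 12 neutrophil genes had H3K27ac in both neutrophil libraries (40.8 to 42.7 kb), and S100a8, S100a9, Ltf, Camp, Mmp9 and Retnlg were at 0 in every HSPC group. Of the 12, 4 were covered in both libraries of WT, of Npm1c and of Flt3-ITD HSPC, and 3 in DM. Of 10 stem and progenitor genes, 9 were covered in both WT HSPC libraries, 10 in Npm1c, 10 in Flt3-ITD and 7 in DM. Mecom was at 0 in WT HSPC, and Gata2 and Mecom were at 0 in DM. In neutrophils 4 of the 10 were covered in both libraries, and Kit, Cd34, Gata2, Meis1, Mecom and Flt3 were at 0. B cell genes summed to 1.33 to 3.84 kb and T and NK cell genes to 4.15 to 8.91 kb over all libraries. H3K27ac lists held 21704 to 30143 peaks, H3K4me1 lists 102907 to 131179 and H3K4me3 lists 30295 to 39307. The files hold peak positions alone, so read depth is unknown.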

How the data were processed

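Peak lists of 30 ChIP-seq libraries were read, and 5 input samples had no peak list. Per the submitters' processing notes, reads were mapped to mm10 with Bowtie2 2.1.0, and Picard, HOMER and MACS2 were used, with thresholds not given in the sources used here. Deposited files hold peak coordinates only, with no score or count, so the unit is other and depth is unknown. Widths fit HOMER peaks of 1000 bp for H3K4me1 and H3K4me3 and variable MACS2 peaks for H3K27ac. Called width moves with depth and threshold.

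Covered bp per gene window (RefSeq, GRCm38.p6) were computed in Python 3.11.15. Values were log2(bp + 500), unscaled. Genes with coverage in 2 or more of the 10 libraries entered 1 linear model over all 5 groups (limma 3.58.1, trended eBayes, run under R 4.3.3). There were 7 comparisons, adjusted by Benjamini-Hochberg per mark and comparison over all genes, threshold 0.05. The code was tested on simulated data. An exact permutation test of 2 against 2 cannot go below 0.333.

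Members, roles and lists were chosen with earlier results of these data known. Named were the 15 members with the largest called H3K27ac change, the 6 largest for each other mark, and Tnf, Tnfrsf1a, Tnfrsf1b, Fas, Cd27, Cd40 and Tnfrsf13b, and up to 4 pathway genes per comparison. Members named to complete a count fall outside this rule. A group at 0 is given without a fold. Alternatives were a pseudocount of 2000 bp, centring, no filter, gene spans alone, a replicate block, lists cut to the 21704 widest peaks (H3K27ac), each library left out, an overlap of 500 bp for presence and, added after seeing the data, a spread of at least 1 peak. The 5 groups share 1 estimate of spread, so a lone library is assumed to vary like the others.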

Additional observations from a re-analysis of the deposited data

Results flagged for a closer look

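At 4 members the H3K27ac change in DM HSPC differed from the sum of the changes in Npm1c and Flt3-ITD HSPC (limma interaction term on the log2 scale, against 18% of all genes called). The term was -1.51 at Tnfrsf8 (SE 0.418, adjusted p = 0.0471), -1.47 at Tnfrsf18 (SE 0.237, adjusted p = 0.0152), -0.51 at Tnfrsf26 (SE 0.131, adjusted p = 0.0408) and -0.84 at Eda2r. Eda2r met the filter through its Npm1c libraries alone, so its term restates the Npm1c value and is no test. Tnfrsf18 and Eda2r had peaks in both Npm1c libraries and in no WT, Flt3-ITD or DM library. Tnfrsf8 was covered for 1.08 and 1.13 kb in Npm1c, 0.958 and 0.582 kb in Flt3-ITD, 1.31 and 0.605 kb in DM and 0 in WT. Where WT is at 0 the size of the term depends on the 500 bp added before taking logs. Tnfrsf26 covered 1.79 and 1.94 kb in Npm1c and 1.35 and 1.32 kb in DM. The median of this term over all genes was -0.46. After centring the adjusted p was 0.158 for Tnfrsf8, 0.091 for Tnfrsf18 and 0.989 for Tnfrsf26, and these calls were also lost without either WT library. Of 14 alternatives, the call was made in 1 for Tnfrsf8, 9 for Tnfrsf18 and 4 for Tnfrsf26. That of Tnfrsf8 held without DM replicate 1 alone.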

How the results depend on the processing

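Counts of called members were recomputed with 1 choice changed at a time. For H3K27ac the count without 1 library ranged from 0 to 4 for Npm1c (5 as reported), 0 to 7 for DM (5), 6 to 13 for neutrophils (16), 5 to 9 for DM against Npm1c (7), 0 to 2 for DM against Flt3-ITD (0) and 0 to 10 for the interaction (4). For H3K4me1 it ranged from 0 to 6 for Npm1c (0), 0 to 1 for Flt3-ITD (0), 2 to 4 for DM (3) and 6 to 13 for neutrophils (14). For H3K4me3 it ranged from 1 to 4 for Npm1c (1), 1 to 3 for Flt3-ITD (1), 4 to 6 for DM (4) and 9 to 12 for neutrophils (13). Centring on library medians gave 0 for Npm1c, 8 for DM, 13 for DM against Npm1c, 1 for DM against Flt3-ITD and 2 for the interaction in H3K27ac, and 0 for Npm1c and 2 for DM in H3K4me3. No filter gave 3 for Npm1c and 2 for DM in H3K27ac. Gene spans alone gave 9 for neutrophils and 2 for the interaction in H3K27ac, 6 for DM in H3K4me1, and 0, 0 and 2 for Npm1c, Flt3-ITD and DM in H3K4me3. Equal lists of the widest peaks gave 2 for Npm1c, 1 for DM against Flt3-ITD and 2 for the interaction. A spread of at least 1 peak gave 0, 2 and 7 for Npm1c, Flt3-ITD and DM in H3K4me3. The cause of these shifts was not tested.

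The labels give replicate numbers but no pairing, and deviations of same-numbered libraries correlated from -0.126 to 0.278 over 10 pairs of groups in H3K27ac, -0.119 to 0.0705 in H3K4me1 and -0.231 to 0.103 in H3K4me3. With a replicate block the H3K27ac counts were 3 for Npm1c and 2 for the interaction, and every other count stayed within 1.5 times the reported one.

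Of 56 results for named members, 423 recomputed values kept the call, 142 kept the direction and lost it, and 2 reversed: with the gene span alone Tnf gave -0.75 for H3K4me1 in neutrophils and -0.0145 for H3K4me3 in DM. An overlap of 500 bp in place of 1 bp moved none of 15 presence counts by more than 1.5 times. With no read counts, differences in depth cannot be told apart from differences in the marks.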
